A study of Rattus norvegicus with 12 samples.

Results

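G0s2 encodes a small protein that blocks adipose triglyceride lipase, the enzyme that makes the first cut in stored fat. It was examined here with 8 genes of fat cells and fat storage in rat esophagus: Pnpla2, Lipe, Plin1, Cidec, Fabp4, Adipoq, Lpl and Pparg. The set was chosen by gene symbol around G0s2, which was itself selected on its high signal at week 29 relative to control. All 9 genes were measured, by 11 of the 31042 probe sets tested, out of 14217 genes with a single symbol. Lipe and Plin1 each had more than 1 probe set. The brighter probe set over the 12 arrays stood for the gene, and the other one is reported beside it.

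Total RNA was hybridised to 12 Affymetrix rat expression arrays, 1 for each sample, in 4 groups of 3. The control rats were injected under the skin with the solvent, a mixture of dimethyl sulfoxide and water. The other rats were injected with N-nitrosomethylbenzylamine (NMBA), a nitrosamine that produces squamous tumors of the rat esophagus, at a dose of 0.3 mg per kg body weight. Both kinds of injection had a volume of 0.2 ml and were given 3 times a week for 5 weeks, and the labels place the NMBA samples at 6, 15 and 29 weeks, named the early, middle and late stages of tumor development. The labels name no strain, sex or age and no week for the controls, so stage and age cannot be told apart. Rats were kept 3 to a cage, and the labels do not say whether arrays came from different rats. The p-values therefore rest on the spread between these arrays, which may be technical.

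Fat is stored as triglyceride in droplets inside cells. Lipoprotein lipase, encoded by Lpl, frees fatty acids from circulating lipoproteins, Fabp4 carries fatty acids in the cell, and Plin1 and Cidec coat and enlarge the droplet of the fat cell. Pnpla2 (adipose triglyceride lipase) and Lipe (hormone-sensitive lipase) break triglyceride down, and G0s2 binds and inhibits Pnpla2. Pparg is the nuclear receptor that directs fat cell formation, and Adipoq encodes adiponectin, a hormone made almost only by fat cells. Of these genes, G0s2, Lpl and Pnpla2 are also known from striated muscle, and Fabp4 and Lpl from capillary endothelium and macrophages. The outer muscle coat of the rodent esophagus is striated.

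The 250 bases before the RefSeq start of G0s2 and of Pnpla2 are shown because these genes, an inhibitor and its target enzyme, moved together between weeks 6 and 15. RefSeq promoter sequences of build GRCr8 were found for 6 of the 9 genes, in 7 windows, with none for Lipe, Fabp4 and Lpl. Capitals mark matches on either strand to AGGTCA (the half-site of nuclear receptors such as Pparg), TATAA or CACCTG (an E-box form). The G0s2 window is chr13:107335949-107336198 on the minus strand, and that of Pnpla2 is chr1:205982029-205982278 on the plus strand.
G0s2: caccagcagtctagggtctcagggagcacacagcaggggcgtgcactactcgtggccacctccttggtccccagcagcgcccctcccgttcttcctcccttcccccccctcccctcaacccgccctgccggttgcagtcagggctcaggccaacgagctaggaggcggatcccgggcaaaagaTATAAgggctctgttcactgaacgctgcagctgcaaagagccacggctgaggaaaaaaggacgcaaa
Pnpla2: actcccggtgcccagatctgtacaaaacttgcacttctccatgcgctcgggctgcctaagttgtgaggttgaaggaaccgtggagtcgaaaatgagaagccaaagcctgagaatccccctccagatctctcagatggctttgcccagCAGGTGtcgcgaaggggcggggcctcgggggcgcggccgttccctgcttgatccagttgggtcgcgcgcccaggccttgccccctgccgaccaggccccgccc

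The G0s2 window held TATAA, starting at -67 from the start, and the Pnpla2 window held the reverse complement of CACCTG, starting at -103. Of 33469 rat promoter windows of this length, 24% held TATAA, 15.9% held CACCTG and 14.1% held AGGTCA. None of the 7 windows held AGGTCA. One of the windows of Pparg also held CACCTG, starting at -189. These matches describe the letters in a short window and nothing was drawn from them about any factor.

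The labelled tissue was checked against marker lists. Keratin genes of squamous epithelium were bright, with Krt13 between 13.17 and 14.55 on the log2 scale, and so were striated muscle genes, with Acta1, skeletal muscle actin, between 14.03 and 14.71, although the protocol states that submucosa and muscle were stripped off. The mean log2 signal of 24 skeletal muscle markers ranged from 11.88 to 12.34 in controls and 12.48 to 12.64 at week 6, then 10.32 to 11.79 at week 15 and 12.26 to 12.50 at week 29. It was lowest in week 15 replicate 3. The signal of the 3' minus the 5' GAPDH control probe set, which is larger in degraded RNA, ranged from 0.22 to 0.53 in controls and 0.07 to 0.15 at week 6, then 0.22 to 0.60 at week 15 and 0.13 to 0.21 at week 29. Array medians lay between 6.42 and 6.49.

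The log2 signal of G0s2 was 8.23, 8.18 and 8.37 in control replicates 1, 2 and 3. It was 9.57, 9.49 and 9.28 at week 6, 7.67, 8.35 and 7.06 at week 15, and 9.11, 10.17 and 10.98 at week 29. Every week 6 and week 29 array was above every control, and the week 15 arrays spread around and below the controls. In order of group mean, G0s2 was at 7.69 ± 0.64 (SD, n = 3) at week 15, 8.26 ± 0.10 in controls, 9.45 ± 0.15 at week 6 and 10.09 ± 0.94 at week 29. Neighbours in this order overlapped at week 15 and control and at week 6 and week 29, and did not overlap between control and week 6. For this and the other genes, the share of all probe sets without overlap is not given. Statements on overlap are therefore only descriptions.

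The week 29 level of G0s2 stood 1.83 above control on the log2 scale, a 3.54-fold difference of means. This value chose the gene and is given as a description. It came with the widest spread of the 4 groups, since week 29 replicate 1, at 9.11, lay below all 3 week 6 arrays and replicate 3 was the highest of all 12. With single arrays left out, the difference lay between 1.38 and 2.32. With the muscle marker level as a covariate it was 1.58. That level differed little between these groups, with means of 12.14 in controls and 12.40 at week 29, so it could move the estimate little. With the GAPDH value as a covariate the difference was 1.77 and was not called, in a fit that called 132 of 31042 probe sets against 4705. The GAPDH value did not overlap between controls and week 29.

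**Figure D1:**
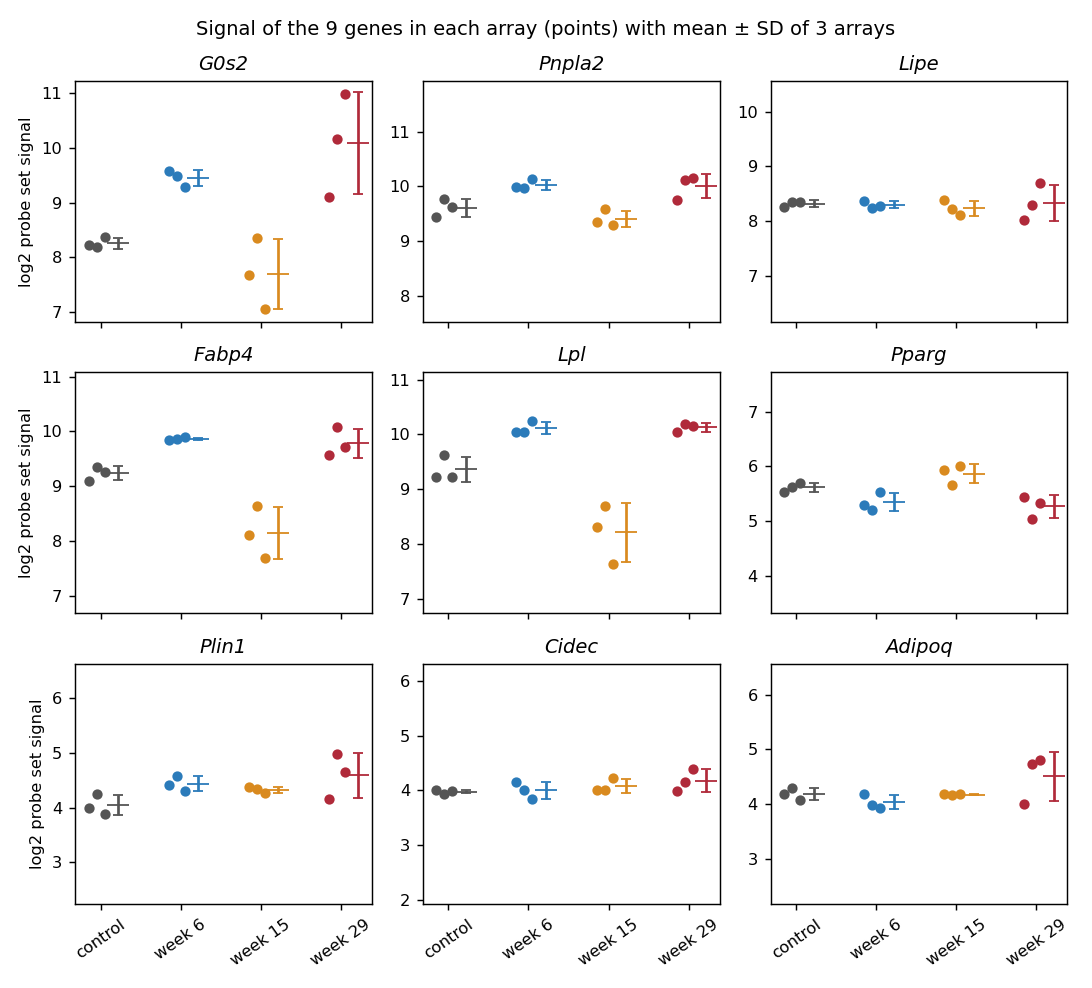
Log2 probe set signal of each of the 9 genes (vertical axes, all of the same span) in the 3 arrays of each group (points), with the mean and SD of each group beside them. G0s2, Fabp4, Lpl and Pnpla2 are lowest at week 15 and higher at weeks 6 and 29, while Cidec and Lipe hardly move and Pparg runs the other way.

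Among the lipases and lipid handling genes, Lpl had the same order of group means as G0s2. Its signal was 9.23, 9.63 and 9.22 in controls and 10.05, 10.05 and 10.24 at week 6, then 8.31, 8.69 and 7.63 at week 15 and 10.04, 10.19 and 10.15 at week 29. Week 6 and week 29 lay wholly above the controls and week 15 wholly below them. Week 29 stood 0.77 above control, less than the 1.83 of G0s2, and its 3 arrays differed by far less, with an SD of 0.08 against 0.94.

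Fabp4, the fatty acid carrier, was at 9.10, 9.35 and 9.26 in controls and at 9.84, 9.86 and 9.89 at week 6. At week 15 it was at 8.11, 8.63 and 7.68, and at week 29 at 9.57, 10.08 and 9.71. As for Lpl, no group of NMBA arrays overlapped the controls, again without the share over all probe sets. Pnpla2, the lipase that G0s2 inhibits, was at 9.44, 9.77 and 9.62 in controls and 9.99, 9.97 and 10.13 at week 6, then 9.35, 9.58 and 9.30 at week 15 and 9.76, 10.11 and 10.15 at week 29. Its week 29 and week 15 arrays overlapped the controls, and its week 6 arrays lay above them.

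Lipe, the lipase downstream of Pnpla2, stayed between 8.03 and 8.69 in all 12 arrays, with control arrays at 8.32 ± 0.06 (SD, n = 3). Week 6 stood at 8.30 ± 0.07, week 15 at 8.23 ± 0.13 and week 29 at 8.34 ± 0.33. Its dimmer probe set gave means of 7.98, 7.96, 8.11 and 8.11 in the same order. Neither probe set separated any NMBA group from the controls except that the dimmer one was higher in all 3 week 29 arrays, by 0.13.

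Of the genes of fat cells, Adipoq, Plin1 and Cidec were dim, while Lipe and Fabp4 were brighter than 77.3% and 88.4% of all probe sets. Adiponectin, Adipoq, was at 4.19, 4.30 and 4.08 in controls and 4.18, 3.99 and 3.94 at week 6, then 4.18, 4.16 and 4.18 at week 15 and 4.00, 4.74 and 4.80 at week 29. On these arrays 10% of all probe sets had a mean under 3.86 and 25% a mean under 4.91. Probes differ in response, and detection calls were not used here, so whether Adipoq rose above background was not assessed. Replicates 2 and 3 of week 29, which had the highest G0s2, also had the highest Adipoq, and replicate 1 was below every control.

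Cidec, which enlarges droplets, was at 4.00, 3.94 and 3.99 in controls and at 3.98, 4.16 and 4.39 at week 29, with means of 4.00 ± 0.16 (SD, n = 3) at week 6 and 4.08 ± 0.12 at week 15. The brighter Plin1 probe set was at 4.00, 4.25 and 3.89 in controls and 4.42, 4.58 and 4.30 at week 6, then 4.37, 4.33 and 4.27 at week 15 and 4.15, 4.97 and 4.65 at week 29. Its week 6 and week 15 arrays all lay above the controls, and week 29 overlapped them through replicate 1. The other Plin1 probe set had means of 4.31, 4.24, 4.44 and 4.37 over control and weeks 6, 15 and 29, with overlapping groups throughout, so the probe sets of this gene disagreed.

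Pparg, whose probe set was brighter than 34.9% of all probe sets, ran against G0s2, Lpl, Fabp4 and Pnpla2. It was at 5.53, 5.63 and 5.69 in controls and 5.30, 5.21 and 5.53 at week 6, then 5.93, 5.67 and 6.00 at week 15 and 5.45, 5.04 and 5.33 at week 29. It was below the controls at week 29 and, with replicate 3 only just under the lowest control, at week 6. The week 15 arrays were the highest on average but overlapped the controls.

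The group means compared between week 15 and week 6 used none of the arrays on which G0s2 was chosen, although the estimate of spread came from all 12 arrays. There 4 of the 9 genes fell and 1 rose. Differences were tested with limma over all probe sets, and a gene was called at an adjusted p under 0.05. In this comparison 37.8% of all probe sets were called in one direction or the other, so several of any 9 genes would be called, and the count of 5 is read against that background. G0s2 fell by 1.75 ± 0.39 log2 units (SE, 3 arrays a group, limma adjusted p = 0.00414), to 0.297 of its week 6 level. Lpl fell by 1.90 ± 0.21 (adjusted p = 8.64e-05), Fabp4 fell by 1.72 ± 0.20 (adjusted p = 9.52e-05) and Pnpla2 fell by 0.62 ± 0.13 (adjusted p = 0.00266).

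Pparg rose by 0.52 ± 0.13 between weeks 6 and 15 (adjusted p = 0.00782). For each of these 5 genes the call held in all 12 fits that left out 1 array. Differences of Lipe (-0.06, 95% interval -0.37 to 0.24), Plin1 (-0.11, -0.48 to 0.27), Cidec (0.07, -0.18 to 0.33) and Adipoq (0.14, -0.24 to 0.51) were not called. The skeletal muscle markers moved with the genes that fell, with 22 of 24 lower and 0 higher, and squamous epithelium markers moved the other way, with 10 of 11 higher. Fibroblast and preadipocyte markers were lower in 7 of 9 cases. The part of these in the result was not tested beyond the covariate fits that follow. In bulk tissue, fewer cells of a type and less RNA per cell cannot be told apart.

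With the muscle marker level as a covariate, the week 15 minus week 6 differences were smaller and none of the 5 was called. That fit called 123 of 31042 probe sets, against 11723 without the covariate, so calls were lost over all genes and not only these. G0s2 was then at -0.42 (adjusted p = 0.719), Pnpla2 at -0.26 (adjusted p = 0.514), Fabp4 at -0.81 (adjusted p = 0.0798), Lpl at -0.93 (adjusted p = 0.0704) and Pparg at 0.26 (adjusted p = 0.553). With the GAPDH value as a covariate G0s2 was at -1.68 (adjusted p = 0.0668), Pnpla2 at -0.44 (adjusted p = 0.101) and Pparg at 0.51 (adjusted p = 0.0899), and 2 of the 9 genes, Fabp4 and Lpl, were called. This fit called 4849 of 31042 probe sets.

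**Figure D2:**
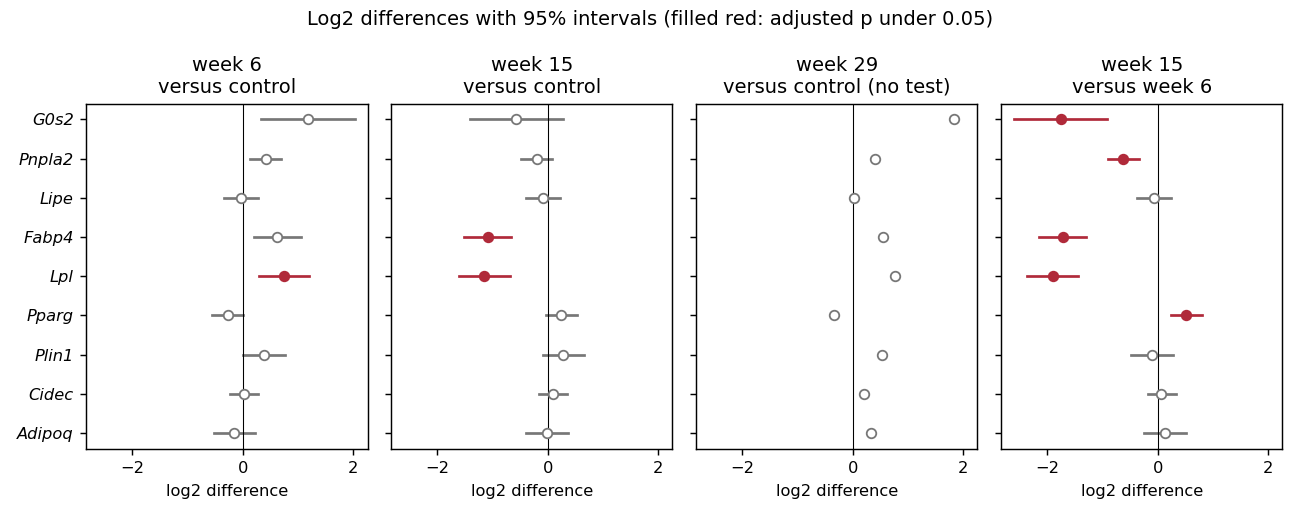
Log2 differences of the 9 genes (horizontal axes) in 4 comparisons, with 95% intervals from limma and filled red points for an adjusted p under 0.05. Week 29 versus control, on which G0s2 was chosen, is drawn without intervals or calls. G0s2, Pnpla2, Fabp4 and Lpl fall from week 6 to week 15 and Pparg rises.

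Week 6 versus control shares the 3 control arrays with the values that chose G0s2. It called 1 of the 9 genes, with 7.54% of all probe sets called. Lpl rose by 0.75 ± 0.21 (SE, n = 3 per group, limma adjusted p = 0.0496), a 1.68-fold difference that sat at the threshold. The call held in 3 of the 12 fits that left out 1 array, those without control replicate 2 (adjusted p = 0.0432) or week 15 replicate 2 or 3 (0.0211 and 0.0163). Without week 29 replicate 1, 2 or 3 or week 15 replicate 1 the adjusted p was 0.0518, 0.0692, 0.0616 and 0.0572. Without control replicate 1 or 3 it was 0.147, and without week 6 replicate 1, 2 or 3 it was 0.107, 0.11 and 0.143.

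Below the threshold at week 6 was G0s2 at 1.19 ± 0.39 (SE, n = 3 per group, limma adjusted p = 0.0764). So were Fabp4 at 0.63 ± 0.20 (adjusted p = 0.0673) and Pnpla2 at 0.42 ± 0.13 (adjusted p = 0.062). All their week 6 arrays lay above all controls, and the share of all probe sets without overlap is not given here. At an unadjusted p under 0.05 by limma, 5 of the 9 genes and 26.3% of all probe sets passed. Plin1 was at 0.39 (adjusted p = 0.176), Pparg at -0.27 (adjusted p = 0.209), and Lipe, Cidec and Adipoq at -0.03, 0.02 and -0.15. The median of the 9 genes was 0.39, beside -0.02 over all probe sets. With the muscle marker level as a covariate G0s2 was at 0.79, Lpl at 0.46, Fabp4 at 0.36 and Pnpla2 at 0.31, and none was called, in a fit that called 79 of 31042 probe sets against 2342. The GAPDH value did not overlap between controls and week 6. With it as a covariate Lpl was at 0.48 (limma adjusted p = 0.621), Fabp4 at 0.42, Pnpla2 at 0.24 and G0s2 at 1.11, none of them called, and 8 of 31042 probe sets were. The muscle markers had a median difference of 0.35 with 0 of 24 called by limma, and squamous epithelium markers were lower in 4 of 11 cases.

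Week 15 versus control, which shares those control arrays too, called 2 of 9 genes, with 7.91% of all probe sets called. Fabp4 fell by 1.09 ± 0.20 (SE, n = 3 per group, limma adjusted p = 0.0101) and Lpl fell by 1.15 ± 0.21 (adjusted p = 0.0107), to 0.469 and 0.450 of control. Both calls held in all 12 fits that left out 1 array. They were lost in a fit of the 6 arrays alone, in which 0 of 9 genes and 135 of 31042 probe sets were called by limma, against 2455 in the fit to all arrays. With the muscle marker level as a covariate Fabp4 was at -0.45 (adjusted p = 0.269) and Lpl at -0.47 (adjusted p = 0.285), in a fit that called 0 of 31042 probe sets by limma.

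G0s2 was at -0.57 ± 0.39 at week 15 (SE, n = 3 per group, adjusted p = 0.382) and at 0.37 with the muscle covariate, and Pnpla2 was at -0.20 (adjusted p = 0.345). Pparg was at 0.25, Plin1 at 0.28, Cidec at 0.10, Lipe at -0.09 and Adipoq at -0.01, none of them called. The median of the 9 genes was -0.09, beside 0.06 over all probe sets. Muscle markers were lower in 4 of 24 cases with a median of -0.97, and fibroblast and preadipocyte markers in 7 of 9, with a median of -1.16.

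The week 29 comparisons use the arrays that chose G0s2 and are given as values. Week 29 versus control called 2 of the 9 genes, G0s2 and Lpl, with 15.2% of all probe sets called, and nothing is read from that count. The differences were 0.77 for Lpl, 0.55 for Fabp4, 0.54 for Plin1, 0.40 for Pnpla2, 0.33 for Adipoq, 0.20 for Cidec, 0.02 for Lipe and -0.34 for Pparg, with a median of 0.40 over the 9 genes and 0.04 over all probe sets. Muscle markers had a median difference of 0.36 and squamous epithelium markers one of -1.17, with 9 of 11 lower. Endothelial markers were lower in 7 of 10 cases, with a median of -0.52, and smooth muscle markers in 4 of 9, with 1 higher. The part of any of these in the values of G0s2 was not tested beyond the covariate fit given above.

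Between weeks 15 and 29, G0s2 was 2.39 higher, Lpl 1.92, Fabp4 1.64 and Pnpla2 0.60, and Pparg stood at -0.59. These 5 of 9 were called, with 35.4% of all probe sets called. Week 29 versus week 6 called 0 of 9 genes and 0% of all probe sets by limma. At an unadjusted p under 0.05, 1 of the 9 genes (Adipoq, at 0.47) and 3005 of 31042 probe sets passed. G0s2 was 0.64 higher at week 29 than at week 6, with a 95% interval of -0.20 to 1.48, and Lpl and Fabp4 were at 0.01 and -0.08.

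**Figure D3:**
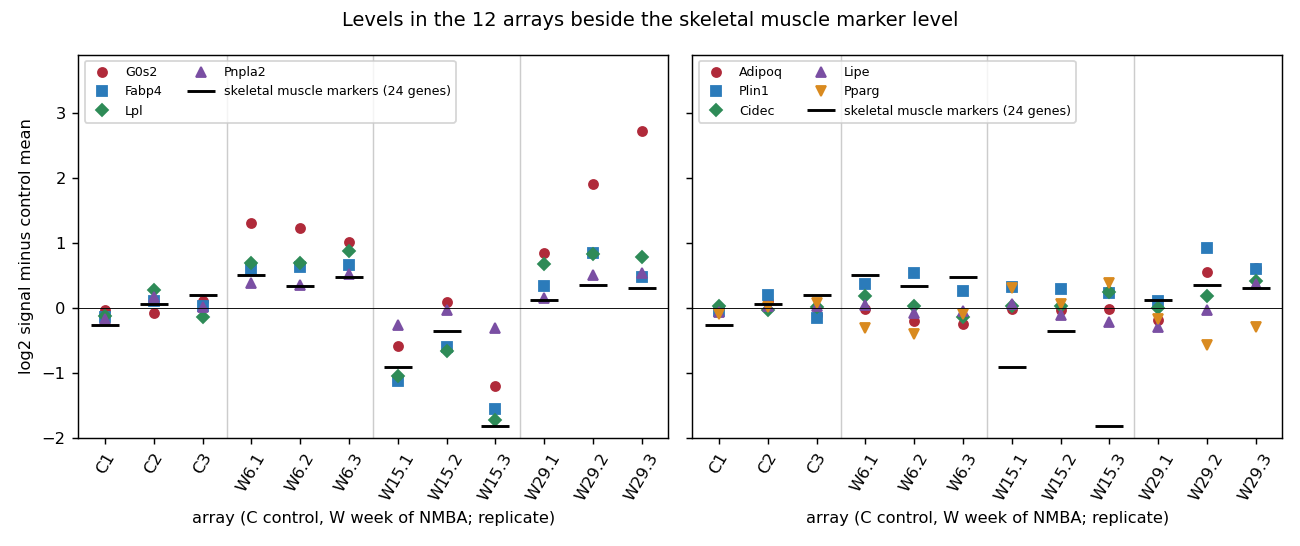
Log2 signal minus the control mean (vertical axis) of the 9 genes in each of the 12 arrays, with the mean of 24 skeletal muscle markers as black dashes. G0s2, Fabp4, Lpl and Pnpla2 (left) dip with the muscle markers at week 15, while Adipoq, Plin1, Cidec, Lipe and Pparg (right) do not show the dip. Adipoq, Plin1 and Cidec were dim in every group, which leaves little room for one. In week 29 replicates 2 and 3, G0s2 lies farther above its control mean than the marker mean does. That mean joins markers that moved apart at week 29 versus control, such as Myh4 (0.93) and Tnnt1 (-0.99), neither of them called. It also holds markers near the highest value of the arrays, such as Acta1, which had little room to rise.

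Fat cell markers called at week 15, versus control or versus week 6, went in both directions. Of 19 measured adipocyte markers, 6 of them members, 0 were called by limma at week 6, beside 7.54% of all probe sets. At week 15 versus control 1 rose and 2 fell, beside 7.91% of all probe sets called. From week 6 to week 15, 3 rose and 4 fell, beside 37.8%. Among the 13 that were not members, 1 rose and 1 fell at week 15 versus control, and 2 rose and 3 fell from week 6. The counts of the lists that follow stand beside the same shares. At week 29 versus control, the comparison that chose G0s2, 1 was called higher and 0 lower by limma, beside 15.2%. The list median there was 0.20 beside 0.01 over all genes. The mean level of the list was 6.60 to 6.73 in controls and 6.73 to 6.83 at week 6, then 6.39 to 6.65 at week 15 and 6.71 to 7.02 at week 29. Levels differed widely between probe sets of the list. Leptin, Lep, was between 4.37 and 4.72 and Lgals12, a galectin of fat cells, between 3.86 and 4.16 in all arrays. Cfd, the fat cell protease adipsin, was between 6.69 and 8.78, Adrb3, the beta-adrenergic receptor of fat cells, between 6.06 and 7.38, and Plin4 between 8.06 and 10.98. Cfd was at 8.46, 7.80 and 7.50 in controls and at 7.73, 8.78 and 8.38 at week 29, so these groups overlapped. Its week 29 replicates 2 and 3 were the ones with the highest G0s2. Cfd and Adrb3 were picked out after their values were seen.

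Among the members of the list that were called, Plin4, a droplet coat of fat and striated muscle, fell by 1.05 at week 15 versus control (limma adjusted p = 0.0254). Cebpa, a transcription factor of fat cells and of differentiating keratinocytes, rose by 0.58 (adjusted p = 0.0201). From week 6 to week 15 Adrb3 rose by 0.71 (adjusted p = 0.0248), and Cebpa and Pparg rose too. The markers of the list that fell were Gpd1 by 1.85 (limma adjusted p = 0.0024), Plin4 by 1.82 (adjusted p = 0.000219), Car3 by 0.51 (adjusted p = 0.0301) and Fabp4. Car3 is also known from striated muscle, and 22 of 24 skeletal muscle markers fell in the same comparison. Brown fat markers were called lower in 2 of 7 cases at week 15 versus control, Cox8b (-1.58) and Ppargc1a (-1.02), which are also muscle genes, and higher in 1, Cidea (0.97). Ucp1, the brown fat uncoupling protein, was between 3.83 and 4.53.

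The lipolysis list held G0s2 and its partners. Of 18 measured genes 1 was higher and 1 lower at week 6, and 0 higher and 2 lower at week 15. From week 6 to week 15, 4 rose and 6 fell. Among the 13 that were not members, the same counts were 1 and 1, 0 and 1, and 4 and 3. Plin5, the droplet coat of oxidative muscle that recruits Pnpla2, was at 6.03, 6.64 and 6.50 in controls and 7.49, 7.18 and 7.33 at week 6, then 5.57, 5.65 and 5.03 at week 15 and 7.01, 7.50 and 7.96 at week 29. It rose by 0.95 at week 6 (limma adjusted p = 0.036), fell by 0.98 at week 15 (adjusted p = 0.0279) and fell by 1.92 between them (adjusted p = 0.000134).

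Prkaca, the catalytic subunit of protein kinase A that switches lipolysis on, fell by 0.93 from week 6 to week 15 (limma adjusted p = 0.00129). Abhd5, the coactivator of Pnpla2 that Plin1 holds on the droplet in resting fat cells, was picked out after its values were seen. It rose by 0.50 from week 6 to week 15 (adjusted p = 0.0207), opposite to Pnpla2 and G0s2, and was not called against control at week 6 (-0.18) or week 15 (0.32).

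Droplet coat genes split in the same way. Of 15 measured, 1 rose at week 6, 1 rose and 4 fell at week 15 versus control, and 3 rose and 4 fell from week 6 to week 15. Plin2, the coat found on droplets of most cells, was at 9.03, 9.66 and 9.47 in controls and 10.06, 10.21 and 10.35 at week 6, then 8.19, 8.69 and 7.34 at week 15 and 10.19, 10.33 and 10.26 at week 29. It fell by 1.31 at week 15 versus control (limma adjusted p = 0.0154). Fitm1, a lipid droplet protein of muscle, fell by 1.39 (limma adjusted p = 0.03). Plin4 and Plin5 were the others that fell. Plin1 and Cidec were not called, and both were dim in every group, which leaves little room for a fall.

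Of 14 genes of capillary lipolysis and fatty acid uptake, 2 rose at week 6, and 1 rose and 5 fell at week 15 versus control. Among the 12 that were not members, 1 rose at week 6, and 1 rose and 3 fell at week 15. Cd36, the fatty acid translocase, was at 8.25, 8.76 and 8.24 in controls and 9.41, 9.20 and 9.86 at week 6, then 6.96, 7.66 and 6.89 at week 15 and 9.40, 9.18 and 9.09 at week 29. It rose by 1.07 at week 6 (limma adjusted p = 0.0241) and fell by 1.24 at week 15 (adjusted p = 0.01). Slc27a4, a fatty acid transporter of epithelia, moved the other way and rose by 0.49 at week 15 (adjusted p = 0.0157). Gpihbp1, which anchors Lpl in capillaries and was picked out after its values were seen, was at 0.01 and -0.04 in the same comparisons and was not called. Endothelial markers fell in 4 of 10 cases at week 6 and 4 at week 15, with medians of -0.47 and -0.42, while macrophage markers were called in 0 of 9 cases by limma in both comparisons, with medians of 0.02 and -0.54.

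In the triglyceride synthesis list 3 of 22 genes rose and 1 fell at week 6, 0 rose and 1 fell at week 15 versus control, and 6 rose and 8 fell between those weeks. Acyl-CoA synthetases moved in both directions. Acsl4 and Acsl6 were lower at week 15 than at week 6, with differences of -1.30 and -2.12 (limma adjusted p = 0.000271 and 0.000412), and Acsl5 rose by 0.82 (adjusted p = 0.000745). Lpin3, a lipin phosphatase of the pathway, rose by 1.25 (adjusted p = 0.000403). Fatty acid synthesis genes rose in 6 of 10 cases and fell in 3 from week 6 to week 15, with Fasn, fatty acid synthase, up by 1.13 (adjusted p = 0.00146), Elovl6, an elongase, by 1.32 (adjusted p = 0.000419) and Acly, citrate lyase, by 0.90 (adjusted p = 0.00116). Mlxipl, a carbohydrate-responsive factor, fell by 0.43 (adjusted p = 0.00161).

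Of 19 genes of fatty acid oxidation 6 rose and 0 fell at week 6, 1 rose and 3 fell at week 15 versus control, and 2 rose and 12 fell from week 6 to week 15, with a median of -0.50 beside 0.07 over all genes. Acadm, the medium-chain acyl-CoA dehydrogenase, rose by 0.60 at week 6 (limma adjusted p = 0.0269) and fell by 0.63 at week 15 (adjusted p = 0.019). Etfdh, which passes electrons from fatty acid oxidation to the respiratory chain, rose by 0.67 at week 6 (adjusted p = 0.0283). Eci1 rose by 0.71 at week 6 and fell by 0.72 at week 15 (adjusted p = 0.0464 and 0.0431), and Acads fell by 0.89 from week 6 to week 15 (adjusted p = 0.000392). The genes that rose between those weeks were Cpt1a (0.84), a carnitine palmitoyltransferase, and Ucp2 (1.05), a mitochondrial carrier.

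Among 18 regulators and targets of PPAR receptors, 5 rose and 10 fell from week 6 to week 15. Of the 16 that were not members, 4 rose and 9 fell. Rxrg, a retinoid X receptor of muscle that pairs with PPARs, fell by 1.74 (limma adjusted p = 0.000522), and Cpt1b, the muscle carnitine palmitoyltransferase, fell by 2.05 (adjusted p = 0.000322). Cebpa, which acts with Pparg in fat cells, rose by 0.94 (adjusted p = 0.000229), in the direction of Pparg. From week 6 to week 15 the counts of these lists moved beside muscle markers of which 22 of 24 fell. Against control, 0 of 24 muscle markers were called at week 6 (median 0.35) and 4 fell at week 15 (median -0.97). The part of muscle in the counts of these lists was not tested.

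**Figure D4:**
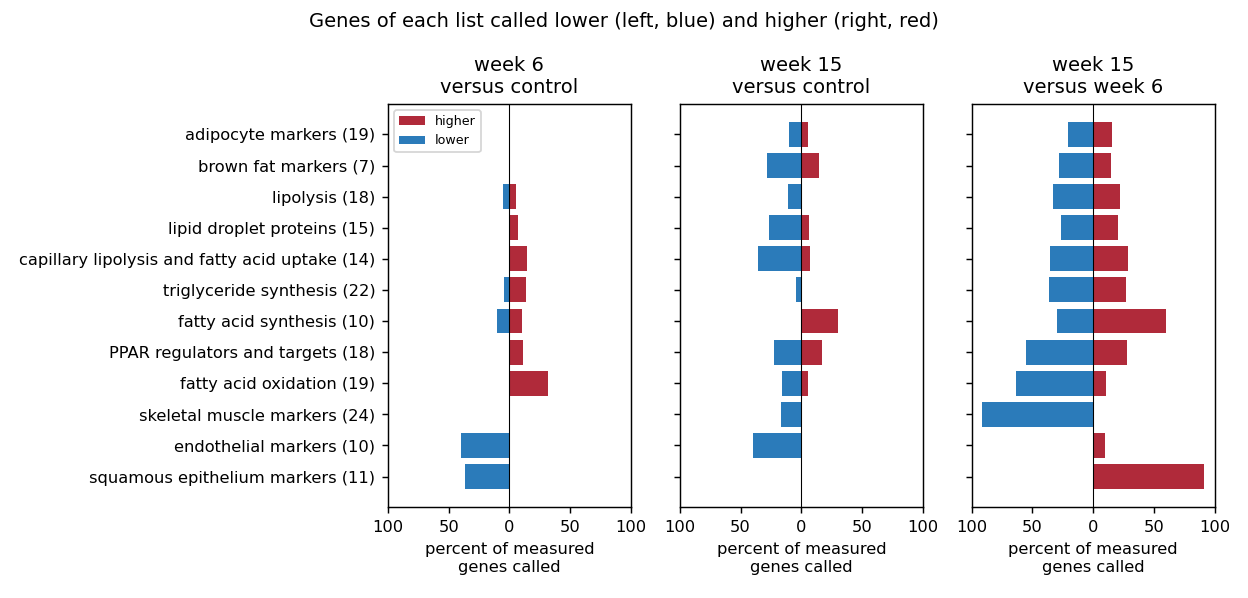
Percent of the measured genes of each list (number in parentheses) called lower (blue, left of 0) or higher (red, right of 0) at an adjusted p under 0.05 in 3 comparisons. Fatty acid oxidation and skeletal muscle markers lean to lower calls from week 6 to week 15, squamous epithelium markers and fatty acid synthesis lean to higher calls, and the adipocyte markers are split. Over all probe sets 7.54% were called at week 6 versus control, 7.91% at week 15 versus control and 37.8% from week 6 to week 15.

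The profile of G0s2 over the 12 arrays was set against 14216 other genes by the root mean square difference of mean-centred log2 signals, where a flat profile would score 1.06. The nearest named genes were Camk2a (0.32), Sema4d (0.33), Scn2a (0.36), Kcnj11 (0.37), Gpd1 (0.37) and Eef1a2 (0.38). Camk2a encodes a calcium and calmodulin-dependent kinase, Sema4d a semaphorin, Scn2a a sodium channel, Kcnj11 the pore of the ATP-sensitive potassium channel and Eef1a2 an elongation factor found in nerve and muscle. Gpd1, which makes the glycerol backbone of triglyceride, is on the adipocyte marker and triglyceride synthesis lists. It was at 9.28, 9.70 and 9.57 in controls and 10.39, 10.50 and 10.02 at week 6, then 8.82, 9.14 and 7.39 at week 15 and 10.10, 10.88 and 11.05 at week 29. Its fall of 1.85 from week 6 to week 15 ran beside 22 of 24 skeletal muscle markers that fell. The part of muscle or of fat cells in the Gpd1 signal was not tested.

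On the same measure Lpl was at 0.55 and ranked 296, Fabp4 at 0.59 ranked 436 and Pnpla2 at 0.79 ranked 1318. Plin1 (0.91, rank 2385), Adipoq (0.94, rank 2934), Lipe (0.98, rank 3798) and Cidec (1.01, rank 4537) were closer to a flat profile. Pparg, at 1.30, was farther from G0s2 than a flat profile and ranked 12226. The measure includes the week 29 arrays on which G0s2 was chosen and is a description, with no test.

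**Figure D5:**
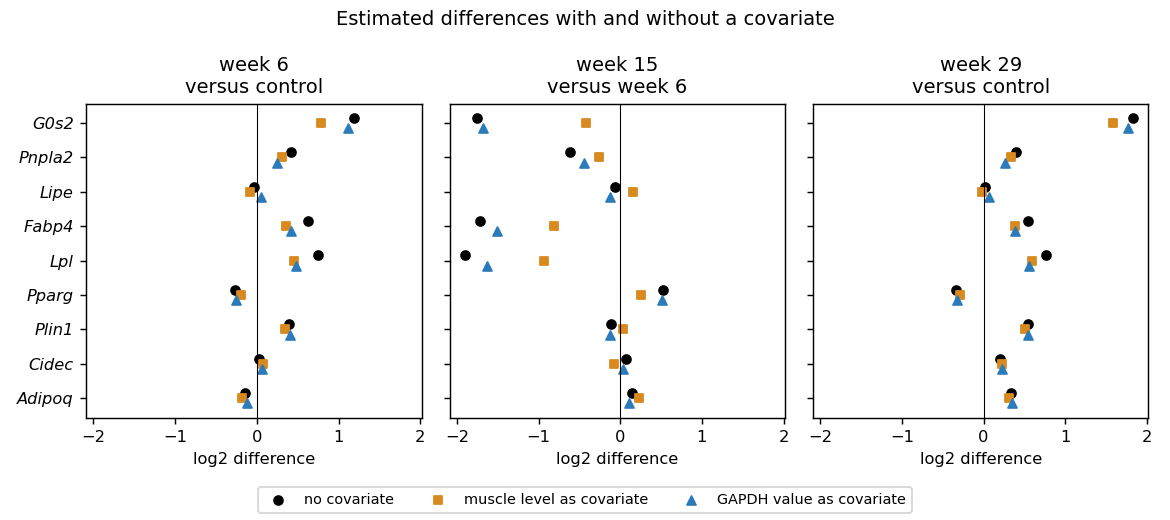
Log2 differences of the 9 genes (horizontal axes) without a covariate (black), with the muscle marker level (orange) and with the GAPDH value (blue) as a covariate, in 3 comparisons. From week 6 to week 15, where the mean muscle level goes from 12.58 to 11.11, the muscle covariate brings G0s2 from -1.75 to -0.42. In week 29 versus control that level differs little (12.40 and 12.14), so the covariate can move the estimate little, here to 1.58. The part of muscle in either difference was not tested.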

How the data were processed

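Signals of probe sets were used on the log2 scale of the table the authors deposited. The submitters' processing notes list Affymetrix Expression Console. How probes were summarized is not given in the sources read here, and the log2 scale was read from the values (2.49 to 14.71). The 57 control probe sets of the array were dropped from 31099, and 31042 were tested, dim ones included. GEO's platform table gave 1 symbol to 20826 probe sets, several to 436 and none to 9780, and the gene identifiers of 20758 were found in the reference gene table (RefSeq, GRCr8).

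limma 3.58.1 (R 4.3.3) fitted the 4 groups to all 12 arrays at once (lmFit and eBayes, two-sided tests) with 8 residual degrees of freedom. Benjamini-Hochberg adjustment covered 31042 probe sets, with calls at an adjusted p under 0.05. The fit was tested on simulated data. The level of a list is its genes' mean log2 signal. The members and lists were chosen with earlier results of these data known. Named genes were all 9 members, up to 4 genes a pathway list that were called in any of the 6 comparisons and had the lowest adjusted p, defining cell markers and the 6 genes nearest to G0s2, with provisional names skipped. Alternatives were other scalings, filters, variance models, array weights, covariates, a replicate block, fits of fewer arrays and gene means over probe sets. No scanner files were used, and precision is limited by there being 12 arrays. No pair of arrays was identical (7 to 47 equal values).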

Additional observations from a re-analysis of the deposited data

Results flagged for a closer look

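For 5 of the 9 genes the difference from control had opposite signs at week 6 and week 15, and a test of the difference between the weeks passed. These are the values of the week 15 minus week 6 comparison above, in which 37.8% of all probe sets were called. The share of all probe sets that also had opposite signs is not given here. The difference was -1.75 on the log2 scale for G0s2, -0.62 for Pnpla2, -1.72 for Fabp4, -1.90 for Lpl and 0.52 for Pparg. With the muscle marker level as a covariate none of the 5 tests passed (limma adjusted p from 0.0704 to 0.719), and the week 15 differences from control of G0s2 and Pnpla2 were 0.37 and 0.05, no longer opposite in sign to week 6. Groups of 3 arrays are too small for a check of single outlying arrays.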

How the results depend on the processing

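Of 1272 differences of single genes under alternatives, 1181 kept their direction or were uncalled, and stayed on their side of the threshold, 46 became called and 45 lost a call. For week 6 versus control, the 1 gene called of 9 became 0 with quantile normalization, an intensity trend with robust variance, the muscle or GAPDH covariate or a 2-fold minimum. It became 2 with dim probe sets left out, gene means over probe sets, or no week 15 arrays, 4 with only the 2 groups compared and 6 with array weights. With single arrays left out it was 0 to 3. For week 15 versus control, the 2 called became 0 with only the 2 groups compared or the muscle covariate, and stayed at 2 to 2 with arrays left out. For week 29 versus control, the 2 called became 4 with array medians subtracted or no week 15 arrays, 7 with array weights, 0 with the GAPDH covariate and 1 at a 2-fold minimum, and 0 to 5 with arrays left out. For week 15 versus week 6, the 5 called became 0 with the muscle covariate, 2 with the GAPDH covariate and 3 at a 2-fold minimum. For week 29 versus week 15, 5 became 2 with the muscle covariate and 3 at a 2-fold minimum, and 5 to 7 with arrays left out. Leaving out the week 15 or week 29 arrays was chosen after seeing the data. With dim probe sets left out 5 of the 9 genes were measured. The cause of these moves was not tested.

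Same-numbered arrays deviated in both like and opposite directions (r between -0.41 and 0.29 over 18 pairs, 8 of them over 0.1). Differently numbered pairs ran from -0.34 to 0.52. With 3 arrays a group this cannot exclude a pairing, and the samples were treated as unpaired. With the replicate number as a block, 3 genes were called at week 6 and 5 at week 29 versus control, and the other counts did not move by over 1.5 times. Of the 6 genes nearest to G0s2, 6 were shared with array medians subtracted and 2 to 6 with single arrays left out, 2 without week 29 replicate 3.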
